A study of Mus musculus with 6 samples.

Results

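The Notch pathway was followed through 31 genes in CTIP2:GFP+ and CTIP2:GFP- cells that had been sorted from differentiating mouse embryonic stem cells (mESCs). The genes were taken by symbol from the platform annotation, and all 31 were found among the 19938 genes of the arrays. They comprised 4 receptors, 5 ligands, 3 Fringe glycosyltransferases, 3 genes for ligand activation and receptor cleavage, 4 genes of the nuclear complex, 6 HES and HEY genes, 3 feedback and inhibitor genes and 3 Deltex genes. The cells came from a 129SVEV line in which an IRES-GFP cassette follows the stop codon of Ctip2 (Bcl11b), with the selection cassette still in place, so that both fractions carried the same knock-in allele. They were grown as floating aggregates (SFEBq) with a TGF-beta receptor inhibitor and a WNT inhibitor at the start of culture, and both fractions were sorted on day 11, day 12 and day 13. Each fraction had 1 GeneChip Mouse Gene 1.0 ST array per day, so 3 arrays per fraction came from consecutive days, and nothing in the labels says whether these days were separate cultures. In the comparison of fractions with day as a factor, the p-values rest on the spread of the difference over the days. The eBayes step of limma draws this spread toward that of all genes, so they do not measure the spread of each gene alone. All values are RMA signals on the log2 scale, and a difference is GFP+ minus GFP-.

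Notch is a receptor that is cut after it binds a ligand on a neighbouring cell. ADAM10 cleaves outside the membrane and the gamma-secretase complex within it, and the freed intracellular domain enters the nucleus, where it joins the DNA-binding protein RBPJ and a Mastermind coactivator to switch on the HES and HEY repressors. In the embryonic brain these repressors hold back proneural genes and keep radial glia undifferentiated, whereas young neurons present the ligands to their neighbours.

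Of the 31 genes, 8 were lower in GFP+ cells past the test (limma with day as a factor, adjusted p under 0.05), which is 25.8%, against 0.567% of all genes. These were the receptors Notch1, Notch2 and Notch3, the glycosyltransferase gene Lfng, the coactivator gene Maml2, the targets Hes5 and Hey1, and the feedback gene Nrarp. Dtx1 was the 1 gene higher past the test, against 0.797% of all genes, and 22 genes did not pass. By size alone, 8 genes were on average over 2-fold lower (1.02% of all genes were), the called genes without Maml2 and with Jag1 in its place, and 0 were over 2-fold higher (1.97%). Every GFP+ array lay below every GFP- array for 14 of the 31 genes, against 7.85% of all genes, and above for 1 gene, against 9.05%. The median difference was -0.56 over the 31 genes and -0.05 over all genes. Without day 13, 0 of the 31 genes and 0 of all genes passed, the 8 called genes then had an adjusted p of 0.052 to 0.10, and 11 of the 31 were over 2-fold lower. Without day 12, 9 were lower and 1 higher (229 and 930 of all 19938 genes), with all 8 calls kept. Without day 11, 10 were lower and 0 higher (171 and 381 of all genes), with 7 of the 8 calls kept. After median centring of each array 0 of the 31 genes and 0 of all genes passed, and the 8 called genes had an adjusted p of 0.098 to 0.144. After a further quantile normalization 7 genes were lower and 0 higher (99 and 52 of all genes). In the fit with no block for the day 5 were lower and 0 higher (41 and 84 of all genes).

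**Figure D1:**
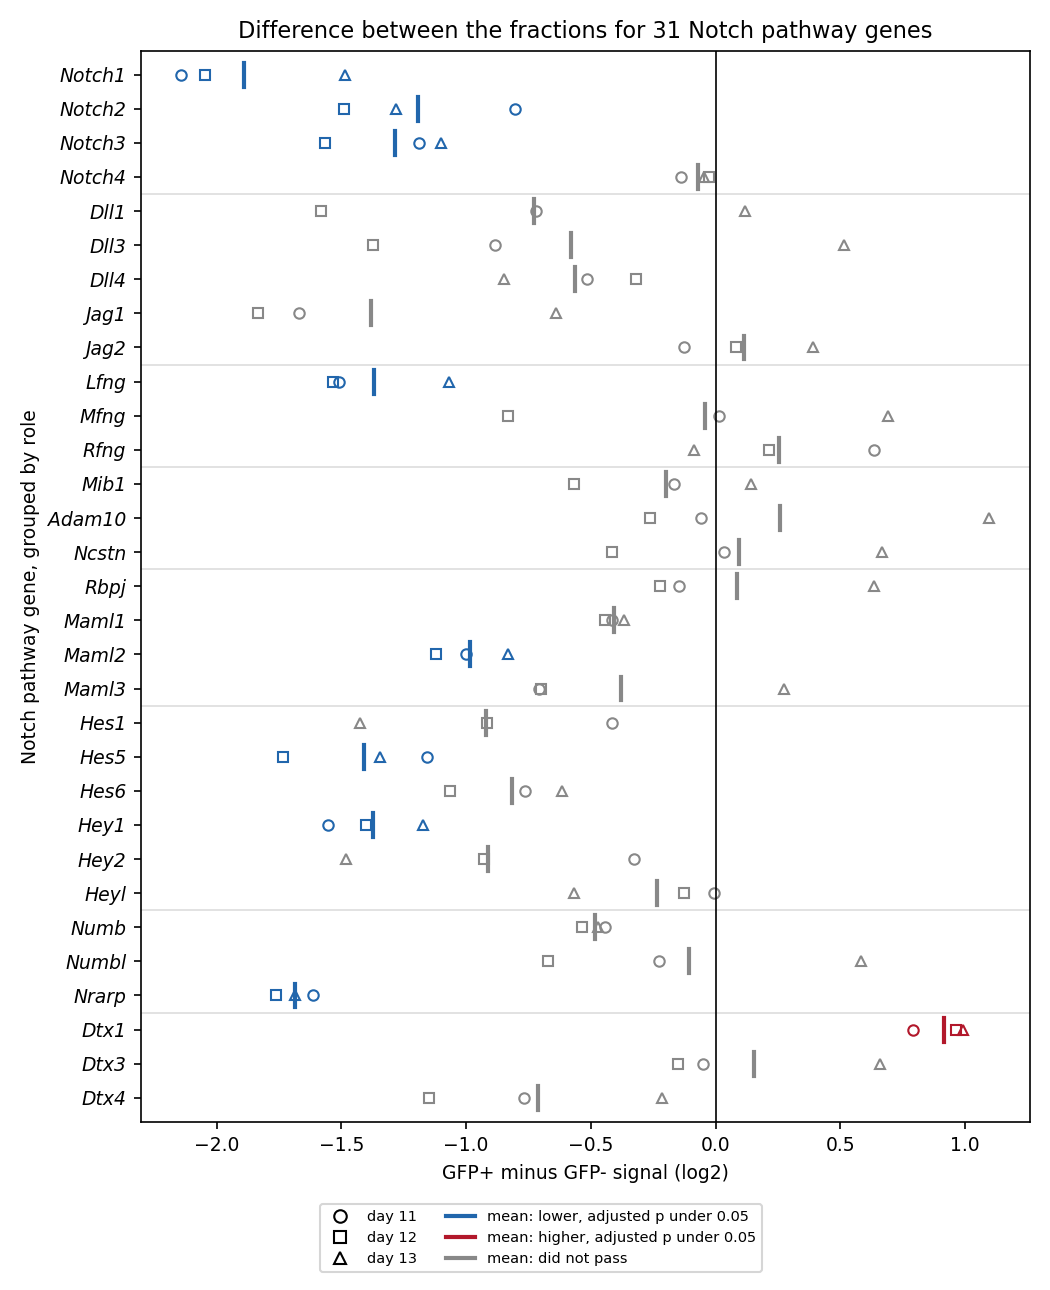
GFP+ minus GFP- signal (x axis, log2) of the 31 Notch pathway genes (y axis, grouped by role). Open symbols are the 3 days and bars are their means, coloured by the limma call. The 3 symbols of Notch1 run from -2.14 to -1.49 and those of Nrarp from -1.76 to -1.61, while those of Dtx1 run from 0.79 to 0.99.

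One array was unlike the rest, the GFP- array of day 13. The standard deviation over its probe sets was 1.11, against 1.29 to 1.48 on the others, and its correlations with them were 0.863 to 0.927. Bcl11b itself, the gene that carries the reporter, was higher in GFP+ cells, with differences of 2.32, 1.64 and 1.65 by day (adjusted p = 0.025 from limma). Of 4 measured telencephalic genes, Emx1 and Lhx2, both expressed by cortical progenitors, lay above the array's median over all probe sets on all 6 arrays. Emx2, also a cortical progenitor gene, lay below it on 4 of them, and Otx2, a forebrain and midbrain gene, on the 3 GFP+ arrays (difference -1.08, adjusted p = 0.059, no overlap).

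Of the receptors, 3 of 4 were lower in GFP+ cells. Notch1, the main receptor of neural progenitors, had signals of 7.06, 7.38 and 7.62 in GFP+ cells of day 11, day 12 and day 13, and of 9.21, 9.43 and 9.10 in GFP- cells. The fractions did not overlap, and their means of 7.36 ± 0.28 (SD, n = 3) and 9.25 ± 0.17 (SD, n = 3) gave a 3.71-fold lower level (-1.89 on the log2 scale, with a standard error of 0.18, adjusted p = 0.024 from limma). Notch2 was at 5.65, 5.79 and 5.55 in GFP+ and at 6.45, 7.28 and 6.83 in GFP- cells, a difference of -0.81, -1.49 and -1.28 by day. It was 2.28-fold lower (-1.19, standard error 0.18, adjusted p = 0.048 from limma), and this call was also lost with no block for the day, with or without the day 13 GFP- array, and after a further quantile normalization. Notch3 was nearly level in GFP+ cells, with 6.04, 5.97 and 5.97, and was at 7.23, 7.54 and 7.07 in GFP- cells. The differences of -1.19, -1.57 and -1.10 gave a 2.44-fold lower level (-1.29, standard error 0.16, adjusted p = 0.033 from limma). Notch4, which is known chiefly from endothelial cells, ran from 5.29 to 5.71 over the 6 arrays. Its fractions overlapped, and it differed by -0.14, -0.03 and -0.05 (adjusted p = 0.824).

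**Figure D2:**
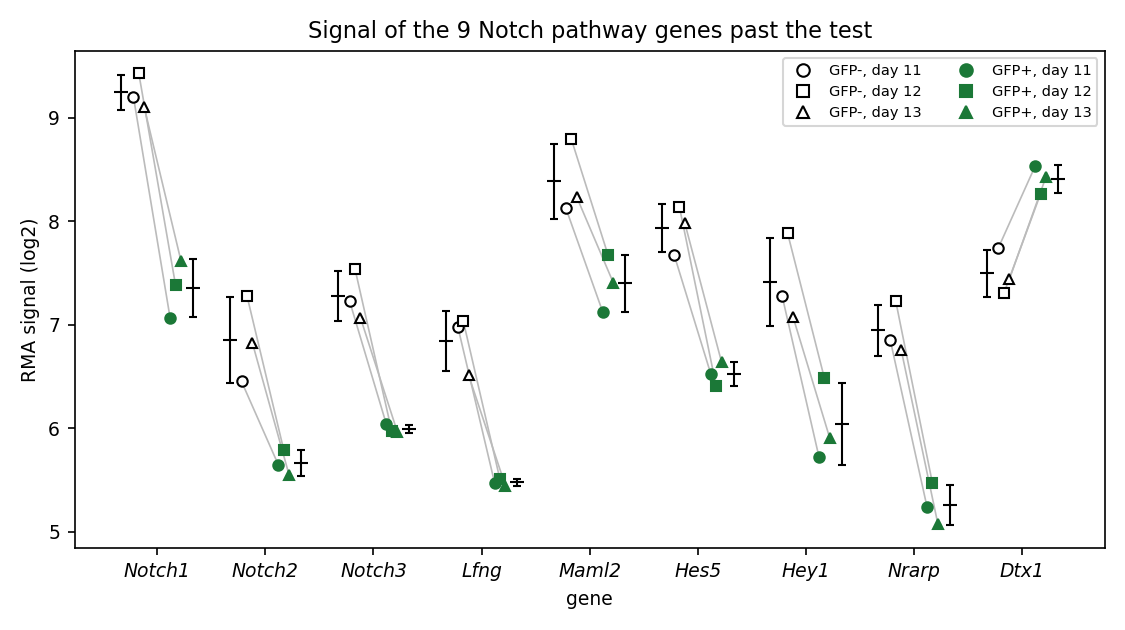
RMA signal (y axis, log2) of the 9 genes that passed the test (x axis). Open symbols are GFP- and green symbols GFP+ arrays. Lines connect arrays of the same day, and horizontal and vertical bars are the mean and SD (n = 3). Every GFP+ array lies below every GFP- array for 8 genes, and above for Dtx1.

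None of the 5 ligand genes passed the test with limma. At an unadjusted p under 0.05 there were 2, Jag1 and Dll4, both lower in GFP+ cells, as were 1188 of all 19938 genes. Jag1, a ligand of the Serrate type, was at 5.59, 6.40 and 5.64 in GFP+ and at 7.26, 8.24 and 6.28 in GFP- cells. Its difference was -1.67, -1.84 and -0.64 by day (mean -1.38, standard error 0.26, adjusted p = 0.072), and the GFP+ array of day 12 lay above the GFP- array of day 13. Jag1 did pass in other limma fits, without day 12 (adjusted p = 0.029), without day 11 (0.027), with dim probe sets left out (0.030) and with a trended and robust eBayes (0.00034). Dll1, a Delta ligand that newborn neurons present, was at 6.71, 6.76 and 7.11 in GFP+ and at 7.43, 8.35 and 6.99 in GFP- cells. GFP+ cells had the lower signal on day 11 and day 12 (-0.72 and -1.58) and a slightly higher one on day 13 (0.12). Dll3, a divergent Delta protein that is held inside the cell, was at 6.39, 6.51 and 6.60 in GFP+ and at 7.28, 7.89 and 6.08 in GFP- cells, with differences of -0.89, -1.37 and 0.52. For both genes the GFP- array of day 13 was the lowest of the GFP- arrays. Dll4, the Delta ligand of sprouting vessels, was at 5.46 to 5.60 in GFP+ and 5.81 to 6.45 in GFP- cells, without overlap, and differed by -0.52, -0.32 and -0.85 (adjusted p = 0.173). Jag2, the other Serrate-type ligand, differed by -0.13, 0.08 and 0.39.

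The glycosyltransferases of the Fringe family add a sugar to the Notch ectodomain and thereby shift which ligands it answers to. Of these 3 genes, Lfng was lower in GFP+ cells, with 5.48, 5.51 and 5.45 against 6.98, 7.04 and 6.51 in GFP- cells. The GFP+ arrays lay below all GFP- arrays with an SD of 0.03 (n = 3), and Lfng was 2.58-fold lower (-1.37, standard error 0.16, adjusted p = 0.031 from limma). Its GFP+ signals lay little above the array medians of 5.40, 5.34 and 5.37, where RMA values can understate a fold. Mfng had no common direction, with differences of 0.01, -0.83 and 0.69. Rfng differed by 0.63, 0.21 and -0.08.

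The genes for ligand activation and receptor cleavage did not pass (0 of 3, and 0 at an unadjusted p under 0.05). Mib1, the ubiquitin ligase that lets ligands be internalised and so activated, differed by -0.17, -0.57 and 0.14. Adam10 was at 7.28, 7.46 and 7.20 in GFP+ and at 7.34, 7.72 and 6.11 in GFP- cells. Its difference was -0.06 and -0.26 on day 11 and day 12 and 1.10 on day 13, when the GFP- signal was at its lowest. Ncstn, the gamma-secretase subunit nicastrin, differed by 0.03, -0.42 and 0.67.

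Among genes of the nuclear complex, Maml2 alone passed. Its probe set with the highest mean was at 7.13, 7.67 and 7.40 in GFP+ and at 8.13, 8.80 and 8.24 in GFP- cells, a 1.98-fold lower level (-0.99, standard error 0.14, adjusted p = 0.045 from limma). The other Maml2 probe set differed less, by -0.45, -0.57 and -0.03, and with the mean of both sets Maml2 did not pass (adjusted p = 0.105). The call was also lost without day 11 (0.083), without day 13 (0.061), with no block for the day (0.130, and 0.122 when the day 13 GFP- array was left out too), after median centring (0.139) and with a trended and robust eBayes (0.060). Maml1, also a Mastermind coactivator, was below all GFP- arrays in every GFP+ array with small differences of -0.41, -0.44 and -0.37 (adjusted p = 0.224). Maml3 differed by -0.71, -0.70 and 0.27. Rbpj itself was at 7.54 to 7.72 in GFP+ and at 7.71, 7.94 and 6.91 in GFP- cells, differences of -0.15, -0.22 and 0.63 (adjusted p = 0.861), and its second probe set gave -0.15, 0.11 and -0.49.

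All 6 HES and HEY genes had a lower signal in GFP+ cells on each of the 3 days, as did 4272 of all 19938 genes. Of the 6, Hes5 and Hey1 passed the test. The stretches of 250 bases before the start sites of Hes5, Lfng and Hey2 are shown because they hold GTGGGAA, a core of the sequence that RBPJ binds. They are taken from RefSeq (GRCm38.p6) and read along the strand of the gene, and capitals mark each match on either strand, TTCCCAC being the opposite one. Hes5 lies at chr4:154960673-154960922 (+), Lfng at chr5:140607091-140607340 (+) and Hey2 at chr10:30842784-30843033 (-).
Hes5: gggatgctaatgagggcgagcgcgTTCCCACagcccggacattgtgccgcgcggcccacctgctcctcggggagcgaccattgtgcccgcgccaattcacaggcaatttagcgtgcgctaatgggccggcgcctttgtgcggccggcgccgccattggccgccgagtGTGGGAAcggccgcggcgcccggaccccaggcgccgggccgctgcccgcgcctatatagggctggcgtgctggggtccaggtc
Lfng: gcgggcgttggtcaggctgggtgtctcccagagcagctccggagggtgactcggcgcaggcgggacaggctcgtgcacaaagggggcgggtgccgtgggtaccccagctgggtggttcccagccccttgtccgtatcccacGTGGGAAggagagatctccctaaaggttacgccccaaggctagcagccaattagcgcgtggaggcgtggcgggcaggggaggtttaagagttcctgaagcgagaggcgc
Hey2: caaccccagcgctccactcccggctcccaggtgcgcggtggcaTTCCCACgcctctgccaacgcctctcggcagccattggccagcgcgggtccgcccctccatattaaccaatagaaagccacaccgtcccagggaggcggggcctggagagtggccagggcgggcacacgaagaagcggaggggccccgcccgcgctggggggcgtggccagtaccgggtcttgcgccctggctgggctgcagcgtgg
Hes5 had 2 matches, 219 and 76 bases before the start site, 1 on each strand, while Lfng had 1 match at 102 bases and Hey2 had 1 at 200 bases. The promoter table held 24 of the 31 genes, with 30 promoters, and 3 of these genes and 3 of these promoters had a match, against 6.18% of all 27025 genes and 5.42% of all 32851 promoters. Hes1, Hey1, Heyl, Mfng, Mib1, Dtx3 and Dtx4 were absent from it and were not searched. The shorter TGGGAA, which GTGGGAA contains, was found for 6 of the 24 genes and in 7 of the 30 promoters, close to the share of all genes (24.1%) and of all promoters (21.6%). Nrarp, Notch1, Notch2 and Notch3 had neither form in this window. A match is a description of these letters and no measure of binding.

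Hes5, a repressor that marks Notch-responding radial glia, was at 6.52, 6.41 and 6.64 in GFP+ and at 7.68, 8.14 and 7.98 in GFP- cells. It was 2.66-fold lower (-1.41, standard error 0.17, adjusted p = 0.031 from limma), with differences of -1.15, -1.73 and -1.34 by day. Hey1, another repressor that Notch induces, was at 5.72, 6.49 and 5.91 against 7.28, 7.89 and 7.08, which was 2.59-fold lower (-1.37, standard error 0.15, adjusted p = 0.028 from limma). Both fractions were highest on day 12, and the call was also lost with no block for the day (adjusted p = 0.097, and 0.066 when the day 13 GFP- array was left out too). Hes1, the repressor best known for oscillating in progenitors, was at 5.15, 4.93 and 5.23 in GFP+ and at 5.56, 5.84 and 6.65 in GFP- cells. Its difference was -0.42, -0.92 and -1.43 by day (mean -0.92, adjusted p = 0.116). Hey2, a repressor related to Hey1, was at 4.93, 4.97 and 4.88 against 5.25, 5.90 and 6.36, with differences of -0.33, -0.93 and -1.48 (adjusted p = 0.144). In all 3 GFP+ arrays Hes1 and Hey2 lay below the median signal of all probe sets, where RMA values can understate a fold. Both passed without day 11 (adjusted p = 0.028 for Hes1 and 0.023 for Hey2) and with a trended and robust eBayes (0.0011 and 0.0010). Hes6, a relative that counteracts Hes1 and favours neuronal differentiation, was at 7.53, 7.39 and 7.61 against 8.30, 8.45 and 8.23, without overlap (-0.77, -1.06 and -0.61, adjusted p = 0.075, and 0.038 with no block and no day 13 GFP- array). Heyl differed by -0.01, -0.13 and -0.57.

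Nrarp, a target whose product feeds back on the Notch complex, was at 5.24, 5.47 and 5.07 in GFP+ and at 6.85, 7.23 and 6.76 in GFP- cells. It was 3.22-fold lower (-1.69, standard error 0.13, adjusted p = 0.024 from limma). The daily differences were -1.61, -1.76 and -1.69, and the GFP+ signal lay below the array median on 2 of the 3 days. Numb and Numbl encode adaptors that restrain Notch in dividing progenitors. Numb was at 6.42 to 6.75 in GFP+ and 6.86 to 7.28 in GFP- cells, differences of -0.44, -0.54 and -0.47 (adjusted p = 0.161), and Numbl differed by -0.23, -0.67 and 0.58.

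The Deltex genes encode ubiquitin ligases that act on Notch, and they did not share a direction. Dtx1 was higher in GFP+ cells, with 8.54, 8.27 and 8.43 against 7.75, 7.30 and 7.44, and all GFP+ arrays lay above all GFP- arrays. It was 1.89-fold higher (0.92, standard error 0.14, adjusted p = 0.048 from limma), with differences of 0.79, 0.96 and 0.99, and it was past the threshold by a small margin. The call was lost without day 11, without day 13, with no block for the day (with or without the day 13 GFP- array), after median centring, after a further quantile normalization, with a trended and robust eBayes and with an unmoderated test after adjustment, while the sign stayed positive in each of these fits. Dtx4 differed by -0.77, -1.15 and -0.21 (adjusted p = 0.181) and Dtx3 by -0.05, -0.15 and 0.66.

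The sign of the difference was the same on all 3 days for 19 of the 31 genes, lower for 18 and higher for Dtx1. Of all 19938 genes, 4272 were lower and 3379 higher on all 3 days. The sign was mixed for 12 of the 31, against 61.6% of all genes. For 8 of these 12 it was negative on day 11 and day 12 and positive on day 13, namely Dll1, Dll3, Mib1, Adam10, Rbpj, Maml3, Numbl and Dtx3, a course that 8.79% of all genes had. The day 13 array was the lowest of the GFP- arrays for 19 of the 31 genes, against 37.7% of all genes. It was the highest for 6, against 8564 of all 19938 genes, namely Hes1, Hey2, Heyl, Dll4, Rfng and Maml1. All genes include 6858 that lay below the array median on all 6 arrays, as 0 of the 31 did. Among 39 further pathway genes described below, this array was the lowest of the GFP- arrays for 29 (74.4%). The same array was the lowest of the GFP- arrays for 10 of 10 neuronal markers and for 5 of 6 measured proneural and neuronal progenitor genes, such as Neurog2 (differences of -1.01, -1.48 and 0.20), and the highest for 4 of 4 telencephalic genes. The part of these shifts in the Notch genes was not tested. A linear change of the difference with day was fitted to all genes, with 1 residual degree of freedom. None of the 31 genes passed, against 0.0351% of all genes, and 3 had an unadjusted p under 0.05. These were Dll3 (0.70 per day), Adam10 (0.58) and Hey2 (-0.58), with an adjusted p of 0.690, 0.913 and 0.913 from limma. The standard error was 0.27 for all 31 genes alike, so these p-values do not measure the spread of each gene.

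**Figure D3:**
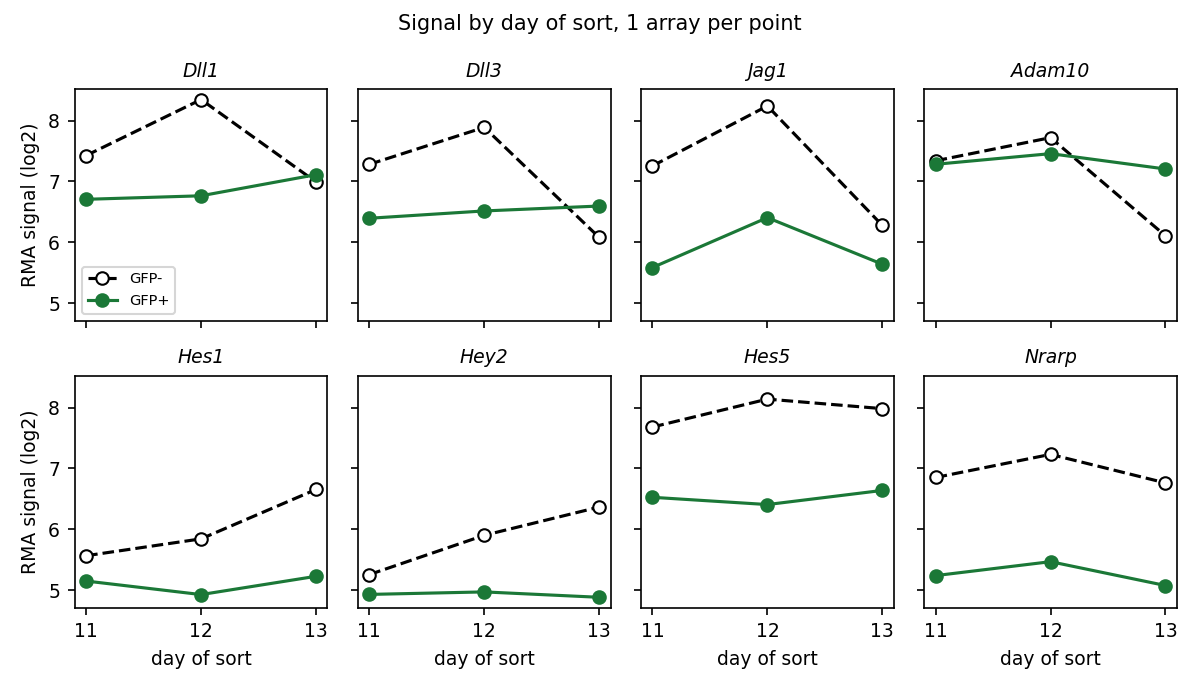
RMA signal (y axis, log2) by day of sort (x axis) for 8 Notch pathway genes, with 1 array per point. GFP- cells (open, dashed) are lowest on day 13 for Dll1, Dll3, Jag1, Adam10 and, by a small margin, Nrarp. They reach 6.65 for Hes1 and 6.36 for Hey2, while GFP+ cells (green) stay between 4.88 and 5.23 for these genes. The fractions stay apart on all 3 days for Hes5 and Nrarp.

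Of 42 further pathway genes listed, among them gamma-secretase subunits, Notch-modifying enzymes, corepressors and coactivators, 39 were measured, and limma called 0 lower and 0 higher. At an unadjusted p under 0.05 there were 8 higher and 0 lower, against 1910 higher and 1188 lower of all 19938 genes. The median difference of the 39 genes was 0.15. Without day 12, 4 of the 39 were called higher, Aph1b, Dner, Tle5 and Hdac2 (930 of all genes were). Without day 11 there were 2, Dner and Tle5 (381 of all genes), and with a trended and robust eBayes 4 (549 of all genes). Dner, a neuronal transmembrane protein that has been described as a Notch ligand, differed by 0.95, 0.66 and 2.19 (adjusted p = 0.122). Tle5, a short Groucho-family protein, differed by 1.05, 0.66 and 1.70 (adjusted p = 0.082), and Aph1b, a gamma-secretase subunit, by 1.43, 0.45 and 1.08 (adjusted p = 0.0997).

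Of 10 radial glial and progenitor genes, 4 were lower in GFP+ cells past limma's test and 0 higher, namely Slc1a3 (-2.72), Nes (-1.52), Sox9 (-1.36) and Vim (-1.06). The other 6 did not pass, and 4 of these had mixed signs over the days, Sox1 (0.06), Sox2 (-0.54), Fabp7 (-0.68) and Glul (-0.44). Pax6 (-1.28, adjusted p = 0.103 from limma) and Prom1 (-0.86, adjusted p = 0.087) were lower on all days. The mean log2 level of that list was 7.77 to 8.16 on the GFP+ and 8.72 to 9.30 on the GFP- arrays. Of 10 neuronal genes, 2 were higher and 0 lower, Syt1 (2.34) and Map2 (0.92), with list levels of 9.08 to 9.36 and 7.44 to 8.55. None of the 4 astrocyte, 4 oligodendrocyte-lineage, 4 microglial and blood and 4 pluripotency markers passed limma's test, with 2, 1, 0 and 0 at an unadjusted p under 0.05. Of all 19938 genes, 3098 had such an unadjusted p. The 2 astrocyte genes were lower in GFP+ cells, Aldoc (-1.47) and Aqp4 (-0.41), and Pdgfra of the oligodendrocyte lineage was higher (1.26). The adjusted p from limma was 0.061 for Aldoc and 0.057 for Pdgfra. None of 5 measured cycling genes passed limma's test (3 at an unadjusted p under 0.05), and their median differences were -1.18, -0.91 and -0.09 by day. In bulk RNA, fewer cells of a type and less RNA per cell cannot be told apart. For the vascular members of the pathway, 0 of 8 endothelial and 0 of 6 mural markers passed, with 1 of each list at an unadjusted p under 0.05. The endothelial list was at 4.82 to 5.02 in GFP+ and 4.88 to 5.38 in GFP- cells and the mural list at 5.12 to 5.24 and 5.24 to 5.53, and the day 13 array was the highest of the GFP- arrays for 6 of 8 and for 6 of 6 of these genes, where it was so for 8564 of all 19938 genes. Their part in the values of Dll4, Notch4, Hey2 and Heyl was not tested.

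**Figure D4:**
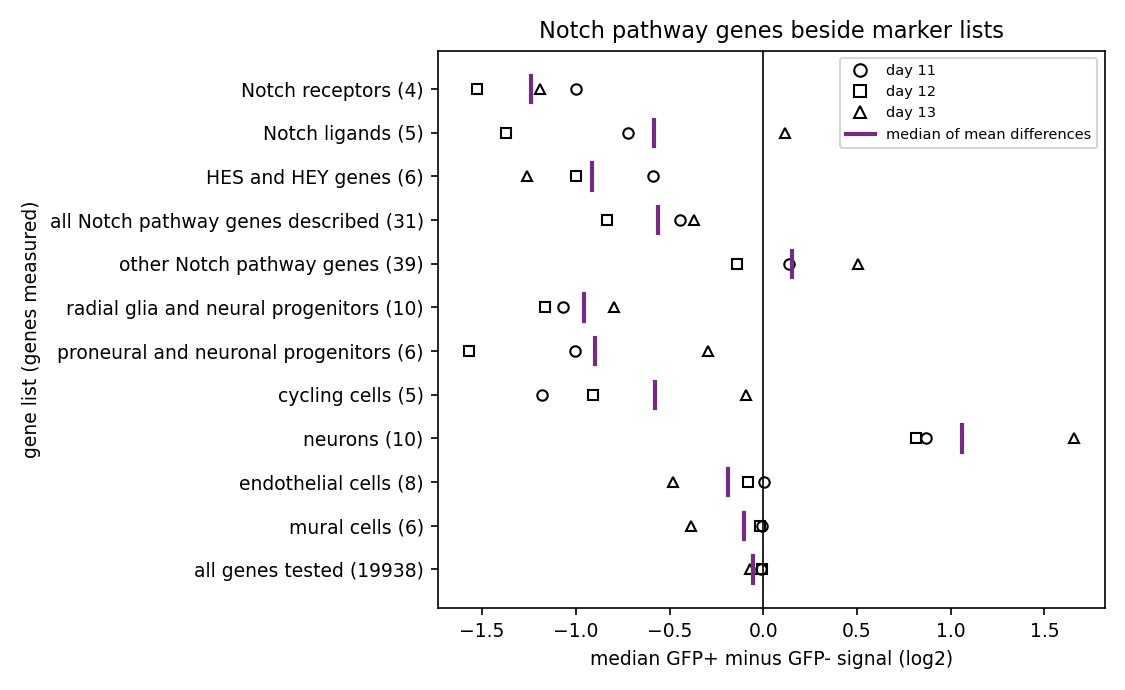
Median GFP+ minus GFP- signal (x axis, log2) of each list of genes (y axis, measured genes in brackets). Open symbols show each day separately, and bars show the median of the mean differences. The daily medians of the receptors run from -1.53 to -0.997 and those of the ligands from -1.37 to 0.12, while those of the neuronal genes run from 0.82 to 1.66.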

How the data were processed

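The log2 signals deposited by the authors came from RMA16, run in GeneSpring. The sources used here do not state whether the 6 arrays were normalized together. The deposited values did not share 1 distribution, with array medians of 5.32 to 5.52 and standard deviations of 1.11 to 1.48. The platform annotation gave 1 symbol to 21789 of 28853 probe sets, and for each of 19938 genes the set with the highest mean was taken, with no filter on dim sets. Notch4 also shares probe sets with another gene, and these were not used. The fit used limma 3.58.1 (R 4.3.3) with terms for fraction and for day as a factor, 2 residual degrees of freedom, eBayes and Benjamini-Hochberg adjustment over all genes (two-sided, threshold 0.05). The study's methods name no test for the arrays, so the Student's t-test they name for other experiments was an alternative, beside no block, days left out, other scaling, probe set rules and variance models. Fractions were paired by the day in the labels. Over genes, the deviations from the fraction mean of the GFP+ and the GFP- array correlated at 0.112 for day 11, 0.558 for day 12 and 0.368 for day 13. Between unlike days they correlated at -0.493 to 0.297. The highest of these, for the day 11 GFP+ and the day 13 GFP- array, was above the value for day 11 itself. The scripts were tested on simulated data. Promoters came from RefSeq (GRCm38.p6), of which only the bases before the start site were read. The members, the lists and the alternatives were chosen with earlier results of these data known. All 31 genes may be named, and of the other lists up to 4 genes per direction past the test and defining markers. Dner, Tle5, Aph1b, Hdac2, Neurog2, Pax6, Prom1, Sox1, Sox2, Fabp7, Glul, Aldoc, Aqp4 and Pdgfra were named after their values were seen. Some listed genes are not analysed here.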

Additional observations from a re-analysis of the deposited data

How the results depend on the processing

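The number of arrays limits every value, and 3 of the 31 genes lay below the array median on at least 2 GFP+ arrays. Against 8 genes lower and 1 higher, the fit with no replicate block gave 5 and 0 (Notch2, Hey1, Maml2 and Dtx1 were lost). Leaving out both arrays of 1 day gave 0 to 10 lower and 0 to 1 higher, with 0 and 0 without day 13. Among all 19938 genes these fits called 0 to 229 lower and 0 to 930 higher. With no block and no day 13 GFP- array 6 were lower and 0 higher (114 and 202 of all genes). The counts were 0 and 0 after median centring (0 and 0 of all genes) and 7 and 0 after quantile normalization (99 and 52). With a trended and robust eBayes they were 10 and 0 (510 and 549 of all genes). The methods' t-test gave 13 lower and 1 higher unadjusted (790 and 966 of all genes). After Benjamini-Hochberg adjustment it gave 0 and 0 (0 and 0 of all genes). The cause of these changes was not tested. Of the 39 further pathway genes, 0 to 4 were higher with 1 day left out, 1 with the filter on dim sets, 4 with a trended and robust eBayes and 5 with the unadjusted t-test. The mean of probe sets (7 lower, 1 higher) and the filter on dim sets (9 lower, 1 higher, all 31 genes tested) changed the counts little. The former called 125 of all genes lower and 171 higher, and the latter 226 lower and 387 higher of 16746 tested. Notch1, Notch3, Lfng, Hes5 and Nrarp kept their calls except without day 13, after median centring and with the adjusted t-test. Only genes that had not passed changed sign. Without day 12 these were Mfng (0.35) and Numbl (0.18). Without day 13 they were Jag2 (-0.023), Rbpj (-0.19), Dtx3 (-0.10), Adam10 (-0.16) and Ncstn (-0.19), and with no block and no day 13 GFP- array Jag2 (-0.048), Rbpj (-0.22), Dtx3 (-0.10), Adam10 (-0.22) and Ncstn (-0.25). Mfng turned to 0.012 after median centring, Rbpj to -0.11 and Ncstn to -0.11 after quantile normalization, and Rbpj to -0.045 with the mean of probe sets. The change with day could not be fitted with a test when a day was left out, and 0 genes passed it in 5 other settings.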
